A study of Mus musculus with 15 samples.

Results

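The 7 genes that encode the cyclin-dependent kinase inhibitors (Cdkn1a, Cdkn1b, Cdkn1c, Cdkn2a, Cdkn2b, Cdkn2c and Cdkn2d) were selected by symbol from 44674 genes in bulk RNA-seq of 15 mouse libraries. They were compared over 8 conditions and along the passages P0 to P4. BMECs (bone marrow endothelial cells) came from whole bone marrow cultures of adult Tie2-CreERT2;Rosa26-tdTomato mice given tamoxifen, in which the Tie2 promoter drives the inducible Cre recombinase and so marks endothelial cells with tdTomato. The labels give the genotype of every library as WT. P0 is the initial whole bone marrow culture in endothelial medium, from which live CD45- tdTomato+ cells were sorted by the surface sialomucin endomucin into Emcn+ and Emcn- cells. P1, P2, P3 and P4 are Emcn- cells of the later serial passages. The study passaged Emcn- cells both within whole marrow cultures and as sorted cells, and does not state which gave these libraries. The lung libraries are from Emcn- cells of lung cultures by the study's methods, whereas the labels say only Lung. MSC (mesenchymal stromal cells) were sorted as CD45- tdTomato+ cells from marrow cultures of Osx-Cre;Rosa26-tdTomato mice in a stromal medium. Each condition had 2 libraries except P4, which had 1.

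These genes act where the cell decides whether to copy its DNA. Cyclin D with CDK4 or CDK6, and cyclin E with CDK2, phosphorylate the retinoblastoma protein and release E2F factors, which switch on DNA replication genes. The INK4 inhibitors p16 (Cdkn2a), p15 (Cdkn2b), p18 (Cdkn2c) and p19 (Cdkn2d) bind CDK4 and CDK6, whereas the Cip/Kip inhibitors p21 (Cdkn1a), p27 (Cdkn1b) and p57 (Cdkn1c) bind cyclin-CDK complexes, CDK2 included. Cdkn2a also encodes ARF from another first exon and reading frame, which restrains Mdm2 and so stabilizes p53, and p53 in turn activates Cdkn1a. Cdkn2a and Cdkn2b are known to be induced when cells are cultured for long, Cdkn1b is high in resting cells, and Cdkn1c is an imprinted gene expressed from the maternal allele.

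All 7 identifiers are in the GENCODE M21 annotation of GRCm38. Cdkn2a (ENSMUSG00000044303, chr4:89274471-89294653, minus strand) and Cdkn2b (ENSMUSG00000073802, chr4:89306299-89311039, minus strand) are neighbours. Cdkn2c (ENSMUSG00000028551, chr4:109660876-109667189, minus strand) lies further along the same chromosome. Cdkn1a (ENSMUSG00000023067) is at chr17:29090976-29100727 on the plus strand, Cdkn1b (ENSMUSG00000003031) at chr6:134920401-134925513 on the plus strand, Cdkn1c (ENSMUSG00000037664) at chr7:143458339-143461050 on the minus strand and Cdkn2d (ENSMUSG00000096472) at chr9:21288410-21291407 on the minus strand. Cdkn2a has 2 annotated transcripts. The p16 transcript starts with an exon at chr4:89281986-89282192 and the ARF transcript with an exon at chr4:89294334-89294653, and both continue into a shared exon at chr4:89276645-89276985. The counts are per gene, so p16 and ARF cannot be told apart in any Cdkn2a value below.

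The stretches before the starts of Cdkn1a, Cdkn2a and Cdkn2b are shown because these are the members with a positive log2 fold change and an adjusted p below 0.05 at P3 against P0 Emcn- cells. The sequences are from RefSeq on GRCm38.p6, where 6 of the 7 members matched a symbol. They run 5′ to 3′ on the gene's strand and leave out bases that the annotation places in an exon of the gene. Capitals mark matches on either strand to a GC box (GGGCGG) or to a pair of CATG cores with 6 bases between them (CATGNNNNNNCATG), the core arrangement of a p53 element.
Cdkn1a, upstream start, chr17:29090729-29090975, plus strand: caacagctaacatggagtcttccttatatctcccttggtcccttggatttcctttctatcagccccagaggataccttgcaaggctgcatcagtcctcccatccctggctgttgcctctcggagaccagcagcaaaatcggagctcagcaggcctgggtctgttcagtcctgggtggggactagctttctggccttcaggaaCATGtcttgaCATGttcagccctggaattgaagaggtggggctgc
Cdkn1a, downstream start, chr17:29093519-29093768, plus strand: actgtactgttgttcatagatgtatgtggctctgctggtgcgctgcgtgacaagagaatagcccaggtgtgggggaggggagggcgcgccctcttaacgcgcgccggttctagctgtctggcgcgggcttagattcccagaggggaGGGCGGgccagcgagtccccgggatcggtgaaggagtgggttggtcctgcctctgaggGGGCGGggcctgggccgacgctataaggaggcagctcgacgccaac
Cdkn2a, ARF start, chr4:89294654-89294869, minus strand: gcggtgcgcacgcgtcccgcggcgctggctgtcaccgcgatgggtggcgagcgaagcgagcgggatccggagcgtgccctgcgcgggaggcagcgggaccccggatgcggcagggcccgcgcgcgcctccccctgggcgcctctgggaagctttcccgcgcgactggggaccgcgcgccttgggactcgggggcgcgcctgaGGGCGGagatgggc
Cdkn2a, p16 start, chr4:89282193-89282442, minus strand: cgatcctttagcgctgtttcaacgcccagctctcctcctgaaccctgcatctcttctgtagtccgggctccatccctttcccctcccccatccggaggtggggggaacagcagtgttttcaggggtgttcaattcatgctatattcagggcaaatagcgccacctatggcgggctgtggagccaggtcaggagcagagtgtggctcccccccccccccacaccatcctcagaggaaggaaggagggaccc
Cdkn2b, chr4:89311040-89311282, minus strand: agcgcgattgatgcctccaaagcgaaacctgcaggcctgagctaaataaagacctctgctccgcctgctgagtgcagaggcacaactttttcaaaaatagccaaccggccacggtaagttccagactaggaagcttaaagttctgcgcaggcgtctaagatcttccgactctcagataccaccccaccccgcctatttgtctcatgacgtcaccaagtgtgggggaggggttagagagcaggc
The paired CATG cores occur in the window before the upstream Cdkn1a start, from 48 to 35 bases before the RefSeq start. Between the printed stretch and that start, 3 bases were left out as exon. Of 32851 windows of 250 bases before a start, 0.49% hold this pair and 32.7% hold a GC box. The downstream Cdkn1a window holds 2 GC boxes and the ARF window 1, whereas the p16 and Cdkn2b windows hold neither motif. The motifs do not overlap in these windows, and a match is a description of the letters, not a measured site.

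Library totals ran from 9914620 counts (P0 Emcn- replicate 2) to 39718807 counts (P0 Emcn- replicate 1). Every member had at least 67 counts in every library. The labels give 4 batches, used here, whereas the study's methods speak of 3 batches of replicates. P0 and lung libraries fill batches d (replicate 1) and a (replicate 2), and P1 to P4 and MSC libraries fill batches b (replicate 1 of P1 to P4) and c (replicate 2 of P1 to P3 and both MSC libraries). Passage and batch therefore cannot be told apart between P0 and P1 to P4. The study's methods describe RNA-seq replicates as independent biological samples, although the labels name no animal or culture for a library. In bulk RNA, fewer cells of a type and less RNA per cell cannot be told apart. The 8 endothelial markers summed to 9940 CPM (a gene's counts as a share of the library total, times 1000000) or more in P0 Emcn+ cells, to 69.2 and 255 CPM in P0 Emcn- cells and to 44.7 to 70.0 CPM in P1 to P4, where Cdh5 (VE-cadherin) was at most 2.3 CPM. The 6 mesenchymal markers summed to 16185 and 12285 CPM in P0 Emcn- cells, to 3498 to 5929 CPM in P1 to P4 and to at most 226 CPM in P0 Emcn+ cells. The endothelial sum of Emcn- cells was thus far below that of Emcn+ cells already at P0 and their mesenchymal sum far above it. The mesenchymal sum was lower in P1 to P4 than in P0 Emcn- cells, though not every marker fell. At P1 against P0 Emcn- cells, log2 fold changes were -2.81 for Col1a1, -1.63 for Col1a2 and -1.27 for Pdgfrb. They were 0.20 for Pdgfra, 0.36 for Lum and -0.0049 for Dcn. The P0 Emcn- libraries stood apart from each other, with 478 CPM of the proliferation gene Mki67 in replicate 1 and 15.5 CPM in replicate 2. Lung replicates also differed, with 437 and 65.6 CPM of Mki67.

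**Figure D1:**
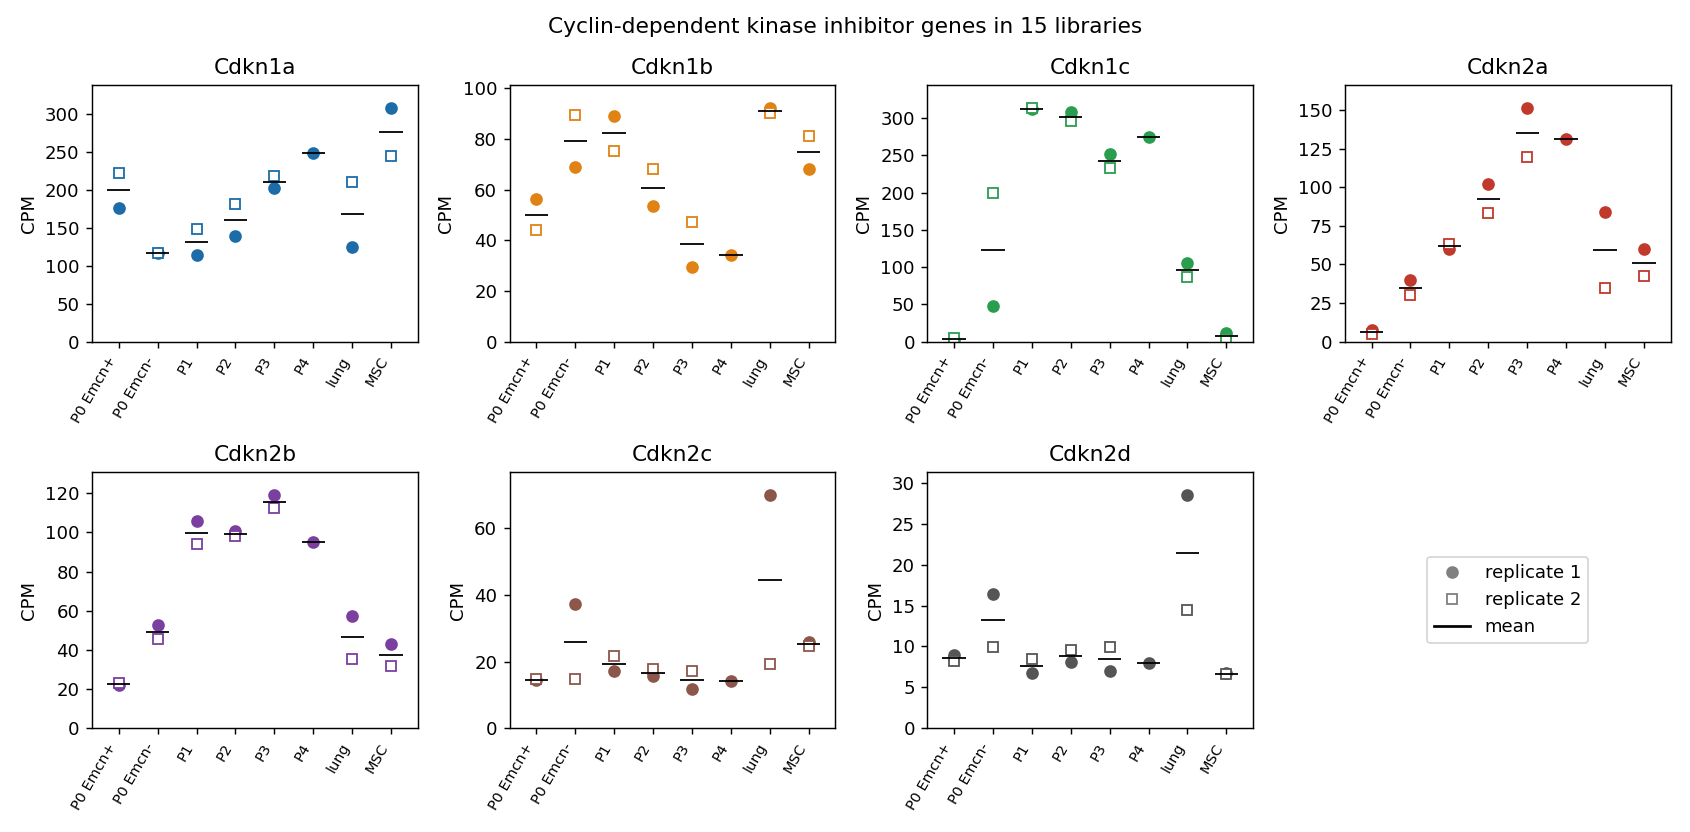
CPM of each of the 7 genes (vertical axes, each from 0) in the 15 libraries by condition, with filled circles for replicate 1, open squares for replicate 2 and a bar for the mean. Cdkn2a climbs from P0 Emcn- to P3 and is lowest in P0 Emcn+, and Cdkn1c is near 0 in P0 Emcn+ and MSC libraries but at least 234 CPM in every P1 to P4 library.

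Cdkn2a, which encodes p16 and ARF, was lowest in P0 Emcn+ cells with 7.57 and 4.99 CPM. P0 Emcn- cells had 39.7 and 30.1 CPM, P1 cells 60.2 and 63.3 CPM, P2 cells 102 and 83.0 CPM, P3 cells 151 and 119.55 CPM, and the P4 library 131 CPM (exact binomial 95% interval 127 to 135 CPM, counting error only). Among Emcn- marrow cells no library from P0 to P3 fell into the range of an earlier passage, and P4 lay between the P3 libraries. Lung cells had 84.2 and 34.8 CPM and MSC 59.6 and 42.7 CPM. P1, lung and MSC followed each other in the order of means, and neither neighbouring pair among them differed by more than the larger SD. The mean was 135 CPM ± 22.3 (SD, n = 2) at P3 and 6.28 CPM ± 1.83 (SD, n = 2) in P0 Emcn+ cells, a 21.5-fold range.

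Cdkn2b, which encodes p15, showed a step between P0 and P1 rather than a climb. P0 Emcn+ cells had 22.2 and 23.1 CPM, P0 Emcn- cells 52.5 and 45.4 CPM, P1 cells 106 and 94.1 CPM, P2 cells 101 and 98.0 CPM, P3 cells 119 and 112 CPM, and P4 95.3 CPM. All 7 passaged libraries were above all P0 libraries. P1 and P2 did not differ beyond their spread, with means of 99.9 ± 8.13 and 99.4 ± 1.98 CPM (SD, n = 2 each). Lung cells, at 57.5 and 35.4 CPM, overlapped P0 Emcn- cells, and MSC had 43.1 and 31.7 CPM.

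The genes on either side of the Cdkn2a-Cdkn2b pair are given as levels, with no test. Mtap, which encodes a methionine salvage enzyme, lies 93390 bases from Cdkn2a and had 33.5 and 50.9 CPM in P0 Emcn+ cells, 63.8 and 63.6 CPM in P0 Emcn- cells and 75.1 to 86.7 CPM in P1 to P4. Its libraries had the same order of P0 Emcn+, P0 Emcn- and passaged cells as those of Cdkn2a and Cdkn2b, without overlap and over a narrower range. Dmrta1, on the Cdkn2b side at a distance of 368397 bases, stayed at or below 0.452 CPM in all 15 libraries.

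Cdkn1a, which encodes p21, was at 117 CPM in both P0 Emcn- libraries. P1 cells had 113 and 149 CPM, P2 cells 139 and 181 CPM, P3 cells 203 and 219 CPM, and P4 248 CPM (exact 95% interval 243 to 253 CPM). The libraries of P1 and P2 overlapped, whereas P3 and P4 lay above both. MSC had the highest mean, 276 CPM ± 44.1 (SD, n = 2), from libraries of 308 and 245 CPM, and P4 did not differ from it beyond that SD. P0 Emcn+ cells had 177 and 223 CPM and lung cells 125 and 210.2 CPM, and P3, P0 Emcn+, lung and P2, in that order of means, each overlapped the next. P3 did not overlap P4 above it.

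Cdkn1b, which encodes p27, ran the other way. P1 cells had 89.0 and 75.4 CPM, P2 cells 53.3 and 68.0 CPM, P3 cells 29.6 and 47.2 CPM, and P4 34.2 CPM. P0 Emcn- cells, with 69.0 and 89.6 CPM, overlapped P1 cells. Lung cells were highest with 92.1 and 90.1 CPM, P0 Emcn+ cells had 56.2 and 44.0 CPM, and MSC had 68.3 and 81.1 CPM. The highest mean was 2.67-fold above the P4 value.

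Cdkn1c, which encodes p57, spanned the widest range of the 7 genes, 82.1-fold between condition means. P0 Emcn+ cells had 2.12 and 5.49 CPM and MSC 12.01 and 3.44 CPM, and these conditions overlapped. P1 cells had 312 and 313 CPM, P2 cells 308 and 296 CPM, P3 cells 252 and 234 CPM, and P4 274 CPM. Lung cells had 105 and 86.5 CPM. The P0 Emcn- libraries differed 4.201-fold from each other, with 47.5 CPM in replicate 1 and 199.6 CPM in replicate 2, and both were below every passaged library. In the same libraries the imprinted RNAs H19 and Meg3 were 243 and 155 CPM in replicate 1 and 1907 and 1740 CPM in replicate 2, and the part of this library difference in the Cdkn1c values was not tested. Of the flanking protein-coding genes, Kcnq1 (a potassium channel) had 19.3 and 11.6 CPM in P0 Emcn+ cells and at most 0.579 CPM in the other libraries, so it was detected above that level where Cdkn1c was lowest but not in MSC, where Cdkn1c was also low. Slc22a18 (a transporter) had 0.665 and 1.04 CPM in P0 Emcn+ cells and 5.72 to 19.3 CPM in the others.

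Cdkn2c (p18) and Cdkn2d (p19) were not called along the passages and differed between replicates in P0 Emcn- and lung cells. Cdkn2c had 17.1 and 21.6 CPM at P1, 15.7 and 17.7 CPM at P2, 11.7 and 17.1 CPM at P3 and 14.3 CPM at P4. P0 Emcn- cells had 37.1 and 14.7 CPM and lung cells 69.8 and 19.2 CPM, so replicate 1 was 2.52-fold and 3.64-fold above replicate 2. P0 Emcn+ cells, at 14.4 and 14.8 CPM, and MSC, at 25.7 and 24.6 CPM, held together. Cdkn2d had 6.75 to 9.96 CPM in P1 to P4, 16.4 and 9.99 CPM in P0 Emcn- cells, 28.5 and 14.4 CPM in lung cells, 8.90 and 8.19 CPM in P0 Emcn+ cells, and 6.67 and 6.71 CPM in MSC.

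**Figure D2:**
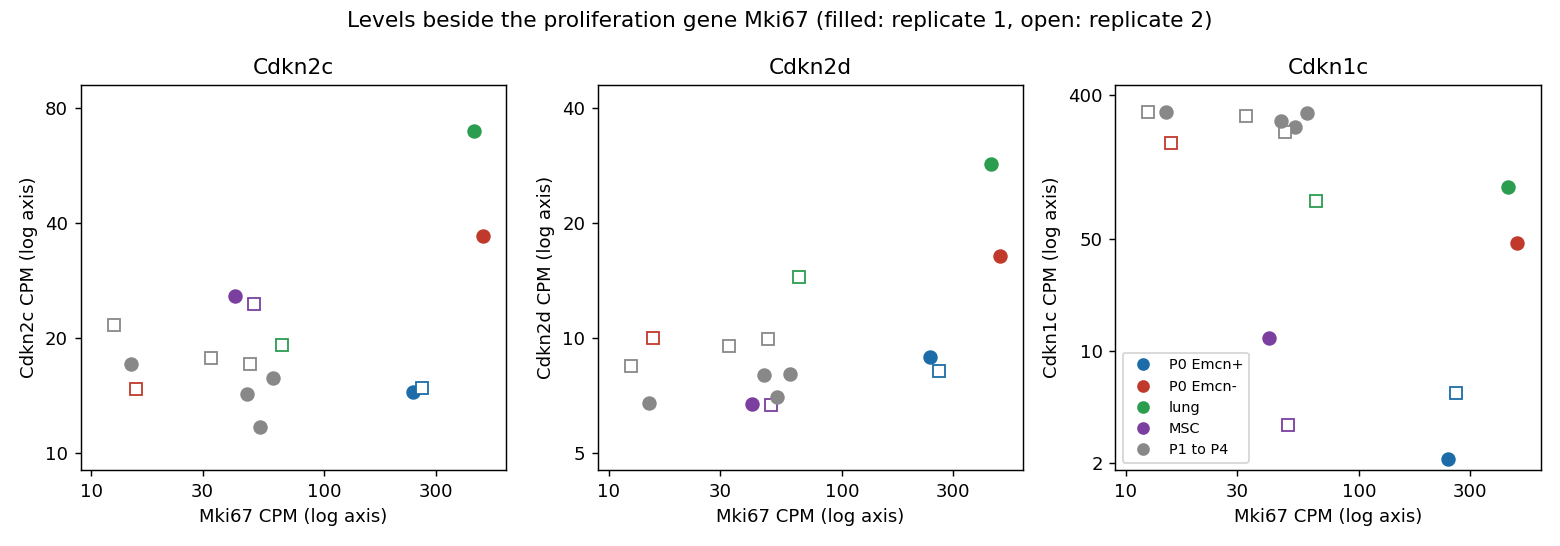
CPM of Cdkn2c, Cdkn2d and Cdkn1c (vertical, log axes) against CPM of Mki67 (horizontal, log axes), 1 point per library, coloured by condition, filled for replicate 1 and open for replicate 2. The libraries with 437 and 478 CPM of Mki67 (replicate 1 of lung and P0 Emcn-) are the highest for Cdkn2c and Cdkn2d, while the P0 Emcn+ libraries with 240 and 261 CPM of Mki67 are not raised.

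The replicates with the higher Cdkn2c and Cdkn2d were those with the higher Mki67 in P0 Emcn- and lung cells. The 14 proliferation genes summed to 1553 and 299 CPM in the P0 Emcn- replicates and to 1637 and 400 CPM in the lung replicates. P0 Emcn+ cells had a sum of 1076 CPM in each library with Cdkn2c at 14.4 and 14.8 CPM. The part of proliferation in the Cdkn2c and Cdkn2d values was not tested.

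Levels were compared between genes only per length, as mean CPM per kilobase of merged exons. Among the Cip/Kip genes, Cdkn1c was the most abundant at P1 with 153 CPM per kilobase, against 36.9 for Cdkn1a and 18.1 for Cdkn1b. In P0 Emcn+ cells the order was Cdkn1a with 56.2, Cdkn1b with 11.003 and Cdkn1c with 1.87 CPM per kilobase. At P4 Cdkn1c was still highest with 134 CPM per kilobase, Cdkn1a had 69.8 and Cdkn1b 7.51. Among the INK4 genes, Cdkn2b had the highest level per length in P0 Emcn+ cells (16.3 CPM per kilobase), P0 Emcn- cells (35.2) and P1 (71.9). Cdkn2a had the highest at P2 (78.9, against 71.5 for Cdkn2b), P3 (115) and P4 (112). It was also the highest in lung cells (50.8 against 33.4) and MSC (43.7 against 26.9), so this order is not particular to late passages. Cdkn2a made up 38.6% of the summed INK4 level per length at P1 and 54.9% at P3. Its shares in the P3 libraries (52.2% and 57.7%) lay above those in the P1 libraries (37.2% and 39.97%). Cdkn2c made up at most 5.96% and Cdkn2d at most 3.96% in any P1 to P4 library. The merged length of Cdkn2a (1172 bases) holds the first exons of both p16 (207 bases) and ARF (320 bases). No annotated transcript has both, so the Cdkn2a level per length is understated. Its order with Cdkn2b in P0 Emcn- cells and at P1 depends on this length. The Cdkn2a share also includes ARF, which is not an INK4 inhibitor.

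The trend along culture was tested as the slope of log2 expression on passage number over the 7 libraries of P1 to P4. This test had no batch term and took the libraries as independent. Same-numbered libraries of P1 to P3 deviated together, with r of 0.355 to 0.456, so its SE and p do not account for shared batches. A gene was called below an adjusted p of 0.05 (edgeR quasi-likelihood test, Benjamini-Hochberg), and 12.3% of 16690 genes tested were called. Of the 7 members, 3 were called. Cdkn2a rose by 0.45 per passage on the log2 scale (SE 0.081, adjusted p = 0.0173) and Cdkn1a rose by 0.34 (SE 0.053, adjusted p = 0.0134). Cdkn1b fell by 0.45 per passage (SE 0.082, adjusted p = 0.0177). The other slopes were -0.09 for Cdkn1c (95% interval -0.20 to 0.03), 0.05 for Cdkn2b (-0.07 to 0.16), -0.15 for Cdkn2c (-0.30 to -0.0020, adjusted p = 0.155) and 0.05 for Cdkn2d (-0.12 to 0.22). Without P1 replicate 1 none of the 3 was called, nor without P1 replicate 2, with slopes of the same sign. The slopes were then 0.41 and 0.42 for Cdkn2a, 0.30 and 0.39 for Cdkn1a and -0.41 and -0.49 for Cdkn1b. Most of the gene lists described below lost calls in these fits too, so the loss is not particular to the members. The count over all genes also fell with a library left out, as given under the processing. With a batch term the same 3 members were called, while the count over all genes went from 2059 to 3707.

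Within each batch the direction was shared. From P1 to P3, the CPM of Cdkn2a was 2.51-fold higher in batch b and 1.89-fold higher in batch c, and that of Cdkn1a 1.79-fold and 1.47-fold higher. Cdkn1b was 3.01-fold lower at P3 than at P1 in batch b and 1.60-fold lower in batch c. Cdkn2b ratios were 1.13 and 1.19, and Cdkn1c ratios 0.807 and 0.746. From P3 to P4, in batch b alone, Cdkn2a went from 151 to 131 CPM, Cdkn1a from 203 to 248 CPM and Cdkn1b from 29.6 to 34.2 CPM, so Cdkn2a and Cdkn1b did not continue their direction in that step.

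**Figure D3:**
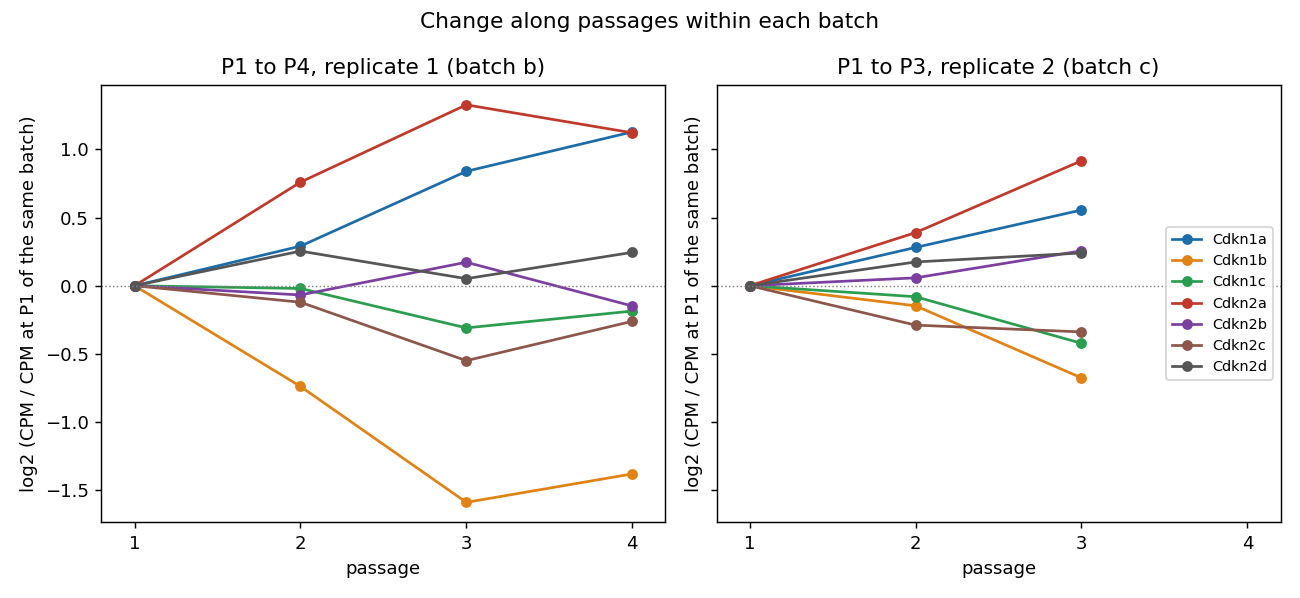
Log2 ratio of CPM to the P1 library of the same batch (vertical) by passage (horizontal), 1 line per gene, for batch b (P1 to P4) and batch c (P1 to P3). Cdkn2a and Cdkn1a lie above 0 and Cdkn1b below 0 at every later passage in both batches, and the P3 ratio of Cdkn2a is 1.33 in batch b and 0.92 in batch c.

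Single steps between passages gave no call. Between groups a call needed an adjusted p below 0.05 plus a log2 fold change past 1.5 in either direction, which 0% of 19401 genes met for P2 against P1, 0% for P3 against P2 and 0% for P4 against P3. At an unadjusted p under 0.05 these comparisons held 856, 403 and 220 genes, and DESeq2 called 15, 2 and 10, none of them members. The largest single step was that of Cdkn1b from P2 to P3, a log2 fold change of -0.68 (SE 0.23, unadjusted p = 0.013).

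Against P0 Emcn- cells, Cdkn2a was called from P2 on. The log2 fold change was 0.97 at P1 (SE 0.39, adjusted p = 0.105), 1.61 at P2 (SE 0.39, adjusted p = 0.0164), 2.15 at P3 (SE 0.40, adjusted p = 0.00434) and 2.13 at P4 (SE 0.45, adjusted p = 0.0117). The P2 call was lost without P2 replicate 1 (1.44) and without P0 Emcn- replicate 2 (1.41). It was also lost without P0 Emcn- replicate 1 (1.83, past the fold limit) and with shrunken fold changes (1.39). Cdkn2a was the 1 member called at P2, at P3 and at P4, and no member was called at P1. The share called over all genes was 8.84% at P1, 12% at P2, 13.2% at P3 and 9.68% at P4.

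Cdkn2b met the p criterion but stayed inside the fold limit at all 4 passages. Its log2 fold change was 1.18 at P1 (adjusted p = 0.00902), 1.23 at P2 (0.00586), 1.43 at P3 (0.00236) and 1.19 at P4 (0.0180). It was called at P3 without P3 replicate 2 (1.51) or without P0 Emcn- replicate 1 (1.55). Cdkn1a likewise passed the adjusted p alone at P3, with 1.04 (adjusted p = 0.0138), and at P4, with 1.31 (0.0143), as did Cdkn1b with -0.86 at P3 (0.0219) and -0.98 at P4 (0.0448). Cdkn1c had the widest intervals, with a log2 fold change of 1.504 at P1 (95% interval 0.01 to 3.00), for which the adjusted p was 0.143. With P0 Emcn- replicate 2 left out, Cdkn1c was called at P1, P2, P3 and P4 with 2.85, 2.86, 2.53 and 2.73. With replicate 1 left out the values were 0.80, 0.81, 0.48 and 0.68, and none was called. Cdkn2c and Cdkn2d were not called at any passage, with estimates from -0.28 to -0.68 and from -0.39 to -0.65. Without P0 Emcn- replicate 1, Cdkn2c was 0.55 at P1 and 0.16 at P3. Macrophage markers moved with the passages too. Of 6 such genes 5 fell in the slope test, their summed level was 184 and 225 CPM in P0 Emcn- cells, 67.6 and 220.1 CPM at P1 and 11.3 CPM at P4, and their part in the members' values was not tested.

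**Figure D4:**
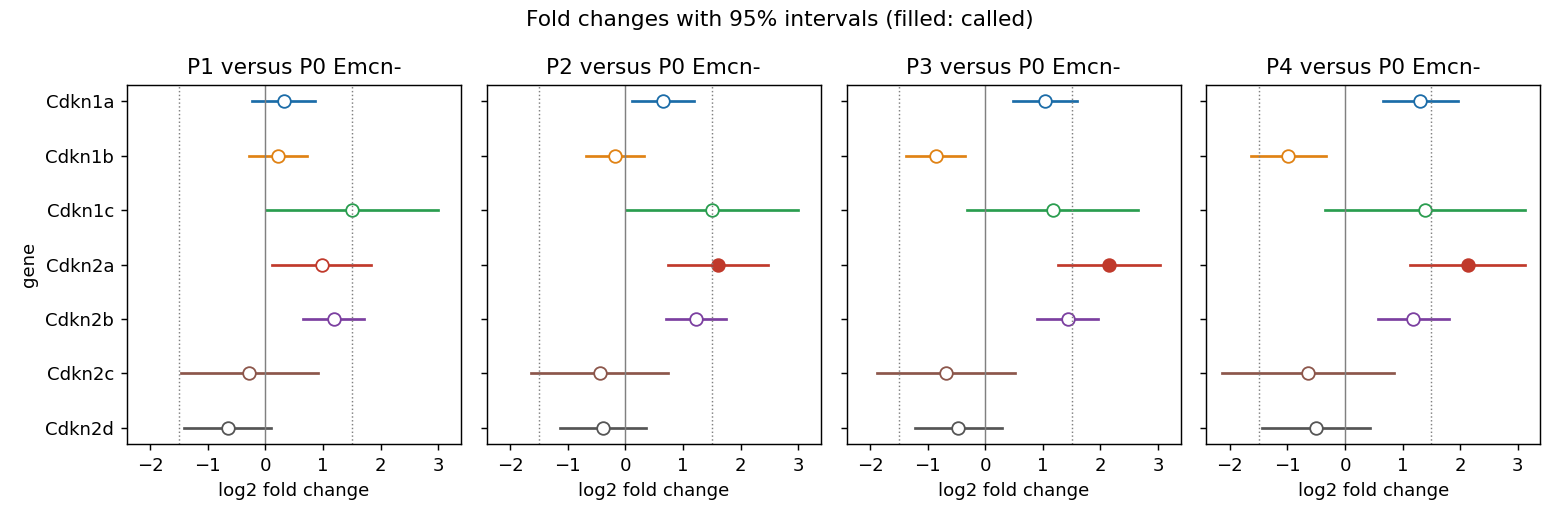
Log2 fold change against P0 Emcn- cells (horizontal) with its 95% interval for each gene (vertical) at P1, P2, P3 and P4, where filled points are called and dotted lines mark the fold limit of 1.5 in either direction. Cdkn2a is filled at P2, P3 and P4 (1.61, 2.15 and 2.13), and the interval of Cdkn1c spans from 0.01 to 3.00 at P1.

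Emcn+ and Emcn- cells sorted at P0 differed at 2 of the 7 members, where 19.2% of all genes were called. Cdkn1c was lower in Emcn+ cells with a log2 fold change of -4.99 (SE 0.79, adjusted p = 0.000863) and so was Cdkn2a with -2.44 (SE 0.41, adjusted p = 0.00122). Without P0 Emcn- replicate 2 the value of Cdkn1c was -3.62, and it was still called. Within batches the Emcn- level was 22.4-fold (batch d) and 36.4-fold (batch a) that of Emcn+ cells for Cdkn1c, and 5.24-fold and 6.03-fold for Cdkn2a. Cdkn2b was lower at -1.08 (adjusted p = 0.00546) and Cdkn1a higher at 0.80 (adjusted p = 0.0292), both under the fold limit. All 8 endothelial markers were called higher and all 6 mesenchymal markers lower in the Emcn+ cells, and the 6 macrophage markers summed to 532 and 542 CPM in Emcn+ cells. The part of these cell differences in the members' values was not tested.

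Lung Emcn- cells had no called member, where 3.83% of all genes were called. Their largest estimates were 0.85 for Cdkn2c (95% interval -0.34 to 2.04) and 0.84 for Cdkn2a (-0.01 to 1.70, adjusted p = 0.287). Lung and P0 Emcn- replicates shared batches, and the Cdkn1c ratio of lung to P0 Emcn- cells was 2.22 in batch d and 0.434 in batch a.

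MSC differed from P0 Emcn- cells at Cdkn1c, which was lower with a log2 fold change of -3.88 (SE 0.74, adjusted p = 0.00334), with 18.7% of all genes called. Without P0 Emcn- replicate 2 it was -2.54, without MSC replicate 1 -5.09, and it was called in both cases. MSC and P0 Emcn- libraries share no batch, so their batches and their cell types cannot be told apart. Cdkn1a was 1.33 higher (adjusted p = 0.00285), under the fold limit. Against P1 cells, with 11.8% of genes called, Cdkn1c was lower with a log2 fold change of -5.38 (SE 0.80, adjusted p = 0.00139). Cdkn2b was -1.48 (adjusted p = 0.00203) and Cdkn1a 1.02 (adjusted p = 0.0146), both under the limit. Without P1 replicate 2 or MSC replicate 1, Cdkn2b was called against P1 (-1.58 and -1.75), and without MSC replicate 2, Cdkn1a was called against P0 Emcn- cells (1.504). Both MSC libraries shared batch c with P1 replicate 2, and in that batch the Cdkn1c level of P1 was 26.1-fold and 91.0-fold that of the MSC libraries. The MSC libraries held 7.9 and 156 CPM of Cdh5, which was not tested as a part of these values.

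The targets and partners of the inhibitors were described from lists, by counts and medians, which can be read against the 12.3% of all genes called and the median of -0.0039 in the slope. Of 12 CDKs and cyclins, 6 were called in the slope over P1 to P4, all higher, with a median slope of 0.46. Ccnd1 (cyclin D1), a partner of CDK4 and CDK6, rose by 1.01 per passage (SE 0.17, adjusted p = 0.0157), from 365 and 322 CPM at P1 to 2372 and 1440 CPM at P3 and 2121 CPM at P4. Ccnd2 rose by 0.55 (adjusted p = 0.0244), Ccnd3 by 0.32 (0.0110), Cdk6 by 0.35 (0.0134), Ccne1 by 0.36 (0.0371) and Ccna2 by 0.70 (0.0385). Without either P1 library 0 of the 12 were called. Apart from Ccna2 these genes are named after their values were seen. At P1 against P0 Emcn- cells, where 8.84% of all genes were called, Ccna2 (cyclin A2) was the 1 called gene of this list. Ccna2 fell by 3.79 on the log2 scale (adjusted p = 0.0469), and E2f2 fell by 2.49 (0.0204) among 11 pocket proteins and E2F factors. The proliferation list had negative estimates for all 14 genes at P1, with a median of -2.53 against 0.0194 for all genes, and Mcm3 and Mcm5, DNA helicase subunits, were the 2 called (-1.86 and -2.76). These values rest on P0 Emcn- replicate 1, without which the median was -0.20, 10 of 14 estimates were negative and none of the 14 was called, nor were Ccna2 (-0.76) and E2f2 (-1.29). Without replicate 2 the median was -3.38 and all 14 estimates were negative. Ccna2 itself was 103 CPM in P0 Emcn- replicate 1, 6.8 CPM in replicate 2, and 3.9 and 3.3 CPM at P1.

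Of 20 p53 target genes other than Cdkn1a, 11 were called in the slope, all higher, with a median slope of 0.31 (12.3% of all genes called). The largest were Perp, a membrane protein, at 1.52 (SE 0.22, adjusted p = 0.0123), Btg2, an antiproliferative regulator, at 0.86 (0.0134) and Gdf15, a secreted factor, at 0.85 (0.0390). Against P0 Emcn- cells, 3 of the 20 were called higher and 2 lower at P1 (8.84% of all genes called), and 8 higher and 0 lower at P4 (9.68%). The higher ones at P1 were Perp, which was at 0 counts in both P0 Emcn- libraries, Trp53inp1 (1.84) and Ccng1 (1.61), and the lower ones Btg2 (-1.93) and Gdf15 (-3.40). The call of Gdf15 was lost without P0 Emcn- replicate 1, and those of Btg2 and Ccng1 without replicate 2. Perp went from 2.0 and 3.0 CPM at P1 to 43.6 and 25.4 CPM at P3 and 46.6 CPM at P4. Mdm2, the ubiquitin ligase of p53 and named for that role, had 116 and 111 CPM at P1 and 297 CPM at P4. Without either P1 library 1 of the 20 was called and 19 of 20 slopes stayed positive. With P1 to P3 alone 8 were called and with the batch term 15, all higher. The batch term also raised the count over all genes, as given above.

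**Figure D5:**
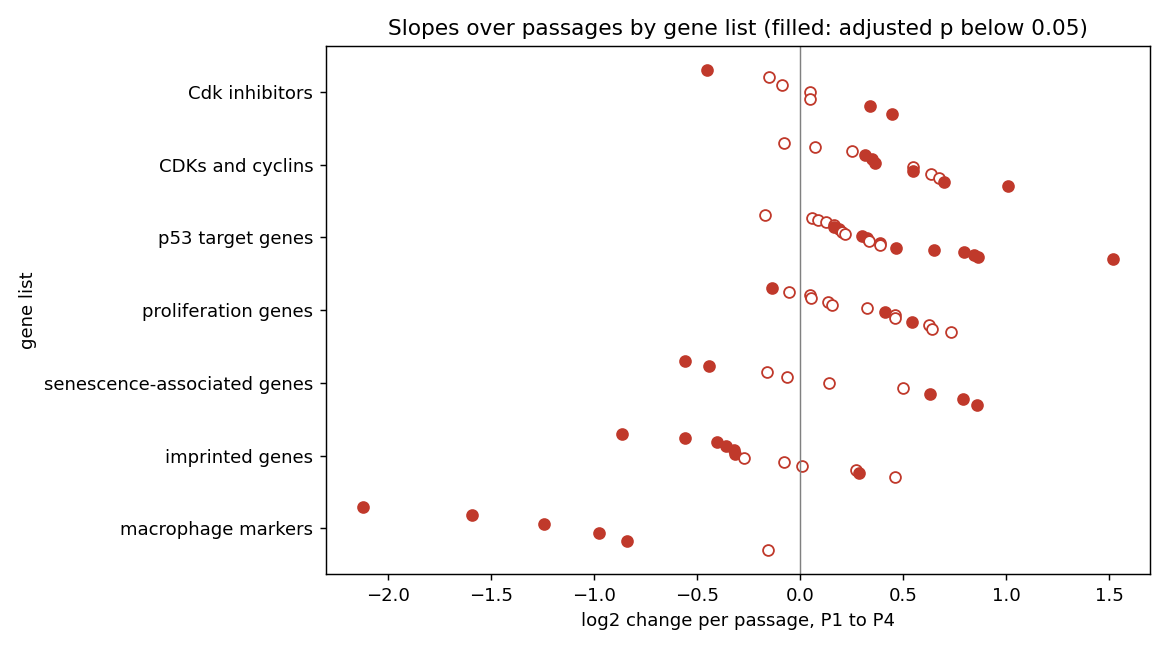
Log2 change per passage over P1 to P4 (horizontal) for each gene of 7 lists (vertical), with filled points at an adjusted p below 0.05. The 12 CDKs and cyclins and the 20 p53 target genes have 11 and 19 positive slopes, and the 6 macrophage markers have none.

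Among 17 regulators of the Ink4 and Arf genes, 3 were called higher and 1 lower in the slope, with a median of -0.05 (12.3% of all genes called). With the batch term, which also raised the count over all genes, 3 were called higher and 3 lower. Without either P1 library 1 in all was called, and 2 with P1 to P3 alone. The largest were Id1, a repressor of Cdkn2a, at 0.41 (adjusted p = 0.00769), Tbx2 at 0.31 (0.0223) and Ets1, an activator, at 0.31 (0.0448). Ezh2 and Bmi1, Polycomb proteins that hold the locus silent in proliferating cells, are named for that role although neither was called. Against P0 Emcn- cells, Ezh2 met the p criterion but stayed inside the fold limit. Its log2 fold change was -1.16 at P1 (adjusted p = 0.0226), -1.18 at P2 (0.0163), -1.30 at P3 (0.00994) and -1.44 at P4. Ezh2 had 31.0 and 17.9 CPM in P0 Emcn- cells and 7.7 to 10.6 CPM in P1 to P4, and Bmi1 45.3 and 51.3 CPM and 45.4 to 74.5 CPM. Among 12 regulators of the Cip/Kip genes, 1 was called in the slope, Hes1, a Notch target and repressor of Cdkn1b and Cdkn1c, which rose by 1.12 per passage (adjusted p = 0.0101). Without P1 replicate 1 none of the 12 was called. Hes1 was lower at P1 than in P0 Emcn- cells with a log2 fold change of -5.44 (adjusted p = 0.000451), with 115 and 37.6 CPM in P0 Emcn- cells and 1.2 and 2.0 CPM at P1.

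Of 9 senescence-associated genes tested in the slope, 3 rose and 2 fell, with a median of 0.14 (12.3% of all genes called). With P1 to P3 alone, 1 rose and 2 fell. Cxcl1, a chemokine, rose by 0.86 (adjusted p = 0.0134) and Mmp3, a matrix protease, by 0.63 (0.0197). Against P0 Emcn- cells the same list had 0 called higher and 5 lower of 11 at P3, with a median of -1.88 against 0.003 for all genes, of which 13.2% were called. The list mixes directions, since Lmnb1 (lamin B1, -1.88) and Hmgb2 (a chromatin protein, -2.41) are known to decline in senescence whereas the secreted factors are known to increase. Among the called genes Il6 and Cxcl1 were the most reduced, at -6.33 (adjusted p = 0.00533) and -4.82 (0.000143), followed by Ccl2 at -3.12 (0.0174). Cxcl1 had 45.7 and 48.8 CPM in P0 Emcn- cells and 0.4 to 3.9 CPM in P1 to P4. At P1 against P0 Emcn- cells the median of the senescence list was -1.68. It was -1.27 without P0 Emcn- replicate 1, the P0 Emcn- library with the higher Mki67. The P3 values of this list were not examined in that way, and the part of proliferation in them was not tested. Among 12 imprinted genes tested in the slope, 6 fell and 1 rose, with a median of -0.29, while Cdkn1c, imprinted itself and counted apart, was not called. H19 fell by 0.86 per passage (adjusted p = 0.0131), Plagl1 by 0.56 (0.0294) and Dlk1 by 0.40 (0.0279). Without P1 replicate 1 or P1 replicate 2, none of the senescence-associated or imprinted genes was called in the slope.

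The genes whose pattern over the 15 libraries was most like that of each member were named by Pearson's r of log2 CPM among 11398 genes with a mean of at least 5 CPM. They were Tsc22d3 (r = 0.980), Ifi205 and Serpina3c for Cdkn1c, S100a4 (r = 0.959), Dap and Pacsin3 for Cdkn2a, and Cyp2f2 (r = 0.963), Maoa and Fundc2 for Cdkn2b. For Cdkn1a they were Lzic (r = 0.915), Ptpn14 and Aagab, and for Cdkn1b Dhrs3 (r = 0.935), Mbip and Emsy. For Cdkn2c they were Atpif1 (r = 0.913), Lrrc40 and Mrpl32, and for Cdkn2d Metrn (r = 0.944), Mrpl27 and Slc25a22. Between members the closest pairs were Cdkn1c with Cdkn2b (r = 0.886), Cdkn2a with Cdkn2b (r = 0.868), Cdkn1c with Cdkn2a (r = 0.745) and Cdkn2c with Cdkn2d (r = 0.743). Over the 7 passaged libraries alone the values of these pairs were -0.689, 0.490, -0.783 and 0.462, so Cdkn1c ran opposite to Cdkn2a and Cdkn2b there. The libraries share batches and conditions, so these values describe likeness and carry no test.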

How the data were processed

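Bulk RNA-seq of 15 mouse libraries in 8 conditions was analysed from the deposited counts per gene. Per the study's methods, the authors aligned trimmed reads with STAR on GRCm38 in an nf-core pipeline, estimated transcript abundance with Salmon on the Ensembl annotation and merged it per gene with tximport, so these deposited counts are estimates given as whole numbers. Reads shared between transcripts or similar genes are divided by such estimation, and p16 and ARF share one Cdkn2a count.

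Groups, replicate numbers and batches were taken from the labels. CPM were computed on library totals. Differences were tested with edgeR 4.0.16 in R 4.3.3 (quasi-likelihood test, TMM factors, 1 coefficient per condition, all 15 libraries) after a filter on low counts (minimum count 10, minimum total 15), which left 19401 genes, with Benjamini-Hochberg adjustment over all of them. The fits had 7 residual and 3.07 prior degrees of freedom. Calls used an adjusted p of 0.05 and an edgeR log2 fold change of 1.5, without shrinkage, whereas the study put that fold limit on ashr-shrunken DESeq2 estimates, an alternative here, and the slope over P1 to P4 used the p limit alone. DESeq2 1.42.0 and ashr 2.2.63 gave alternatives, with RLE factors, no filter, batch terms, P1 to P3 alone, TMM-scaled and thinned CPM and each library left out. List counts with a P1 or P0 Emcn- library left out were added after seeing the data. Tested on simulated data with 200 changed genes, the script recovered 171 with 3 false calls (P1 against P0 Emcn-, 18284 genes) and 196 with 7 false calls (slope, 16541 genes).

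Totals ran from 9914620 to 39718807 counts, so that 3 counts equalled 0.303 to 0.0755 CPM. Intervals for P4 cover counting error only. The labels' replicate numbers mark shared batches among P0 and lung libraries and among P1 to P3 libraries. Deviations of same-numbered libraries correlated with r of 0.138 to 0.207 in the former and 0.355 to 0.456 in the latter. No replicate pair agreed within sampling noise.

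The members and the gene lists were chosen with earlier results of these data known. All members were named. From the lists of CDKs and cyclins and of pocket proteins and E2F factors, genes called at P1 against P0 Emcn- were named, and from every other list the 3 called genes with the largest absolute log2 fold change. Similar genes were the 3 with the highest correlation, and neighbours the nearest protein-coding genes. One gene that the rule would name is not reported here. Other genes were named for their role or after their values were seen.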

Additional observations from a re-analysis of the deposited data

How the results depend on the processing

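Direction and call were the same as reported for 736 of the members' fold changes under the alternatives, 22 passed and 10 lost the threshold, and 30 changed sign, all of them in comparisons where the gene was not called. Without the fold limit, 4 members were called in P0 Emcn+ against P0 Emcn- cells (34.1% of all genes), 2 in MSC against P0 Emcn- cells (35.3%), 3 in MSC against P1 (24.1%), and 1, 2, 4 and 4 at P1, P2, P3 and P4 (17.5%, 23.6%, 25.2% and 16.2%). With ashr shrinkage 0 were called at P2. Leaving out each library in turn gave 0 to 1 members called at P1 and at P2, 1 to 2 at P3 and at P4, 1 to 2 for MSC against P0 Emcn- cells and against P1, and 0 to 3 for the slope. In the same fits the counts over all genes fell as low as 805 at P1, 1157 at P2, 1414 at P3, 406 in lung, 1353 in MSC against P1 and 66 in the slope. The cause was not tested, except that each such fit holds fewer libraries.

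The batch terms, which are the replicate block of this paired design, changed no member's call. No batch holds both P0 or lung and passaged or MSC libraries, so they cannot adjust the comparisons of passaged cells or MSC with P0 Emcn- cells. They turned Cdkn1c in lung to 0.10, Cdkn1b in MSC against P0 Emcn- cells to -0.10 and Cdkn2d in P4 against P3 to 0.13, and raised the count of genes called in the slope from 2059 to 3707. With no filter, Cdkn1b and Cdkn2c in MSC against P0 Emcn- cells were -0.015 and -0.0012. The leave-one-out ranges of the log2 fold changes that turned were, against P0 Emcn- cells, -1.31 to 0.042 for Cdkn2c in P0 Emcn+ cells, -0.98 to 1.07 for Cdkn1c, -0.43 to 0.31 for Cdkn2b and -0.41 to 1.69 for Cdkn2c in lung, and -0.18 to 0.17 for Cdkn1b and -0.49 to 0.86 for Cdkn2c in MSC. For Cdkn2c they were -0.81 to 0.55 at P1, -0.96 to 0.39 at P2, -1.19 to 0.16 at P3 and -1.18 to 0.18 at P4, and at P2 -0.35 to 0.00073 for Cdkn1b and -0.71 to 0.024 for Cdkn2d. Between passages they were -0.043 to 0.047 for Cdkn1c and -0.057 to 0.15 for Cdkn2b in P2 against P1, -0.31 to 0.13 for Cdkn2d in P3 against P2, and in P4 against P3 -0.40 to 0.21 for Cdkn1b, -0.20 to 0.20 for Cdkn2a, -0.19 to 0.29 for Cdkn2c and -0.25 to 0.19 for Cdkn2d. The slope of Cdkn2d ranged from -0.011 to 0.096.

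Counts over all genes moved by more than 1.5 times without the fold limit, to 6609 (P0 Emcn+), 6853 (MSC), 3387 (P1), 4582 (P2), 4896 (P3) and 3146 (P4) against P0 Emcn- cells and 4669 in MSC against P1. With no filter 4 genes were called in P4 against P3, and DESeq2 called 3386 in the slope.

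P4 has 1 library, and its fits assume that it varies like the other groups. At the shallowest library 3 counts equal 0.303 CPM, below every member's level, so depth did not limit detection of a member. Differences of the size of the replicate spread in P0 Emcn- and lung cells could not be resolved with 2 libraries each.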

Other observations

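Of 6 mural cell markers, 4 rose in the slope over P1 to P4 (edgeR quasi-likelihood test with Benjamini-Hochberg adjustment), where 12.3% of all genes were called. The median of the list was 0.50 per passage on the log2 scale. With P1 to P3 alone, 1 of the 6 was called. Acta2 (smooth muscle actin) rose by 0.56 (adjusted p = 0.0349), Des (desmin) by 0.54 (0.0314) and Tagln (transgelin) by 0.45 (0.0169). Acta2 had 12.2 and 9.97 CPM at P1, 34.0 CPM at P4, 89.1 and 62.2 CPM in P0 Emcn- cells and 789 and 1036 CPM in MSC, so its P4 level was below that of P0 Emcn- cells. Without either P1 library 0 of the 6 were called.

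Macrophage markers fell in the same slope, with Adgre1 (F4/80) at -2.12 per passage (adjusted p = 0.00769), Lyz2 (lysozyme) at -1.59 (0.0101) and Ptprc (CD45) at -1.24 (0.0189). Lyz2 had 51.0 and 181 CPM at P1 and 5.2 CPM at P4, although the sort took CD45- cells. Without P1 replicate 1, 2 of the 6 were called, and without P1 replicate 2, 1 was called.

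Among 14 proliferation genes 2 rose and 1 fell in the slope, where 12.3% of all genes were called. Cdc20 rose by 0.54 (adjusted p = 0.0294) and Mcm5 by 0.41 (0.0337), while Mcm7 fell by 0.14 (0.0352). Without either P1 library 0 of the 14 were called. None of 11 pocket proteins and E2F factors was called, and 4 were called with the batch term, which also raised the count over all genes. Of 6 mesenchymal markers 2 fell, Dcn (decorin) by 0.58 and Pdgfra by 0.32, of 8 endothelial markers 1 fell, Cdh5 by 1.27, all lost without either P1 library, and none of 3 osteolineage markers tested was called.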
